A study of Mus musculus with 3 samples.

Results

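Ser5-phosphorylated Pol_II was examined at 6 genes of chromosome 6 that encode C-type lectin receptors of macrophages, Clec4e, Clec4d, Clec4n, Clec7a, Clec5a and Clec2d, and at the 9 Clec4 genes that stand together on the same chromosome. The 6 were chosen by name, with earlier results of these data known, and the rule uses no measured value. Clec4e, Clec4d and Clec4n belong to both sets, so 12 genes of the 22350 protein-coding genes on chromosomes 1 to 19 and X were described. For each, the 5′ ends of ChIP-Seq tags were counted over the gene body and within 1 kb of the transcription start site (TSS), and the deposited peaks that overlap either were listed. Positions are those of the mm9 genome and the GENCODE M1 annotation.

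The cells were macrophages grown for 7 days from the bone marrow of female Fvb mice (Fvb/Hsd in the study's methods) in medium conditioned by L929 cells. There were 2 libraries precipitated with an antibody against Pol_II phosphorylated at Ser5, the first from untreated macrophages (UT) and the second from macrophages treated with 10 ng/ml LPS, the endotoxin of Gram-negative bacteria, for 2 h. The remaining library was input DNA, chromatin sequenced without precipitation, from untreated cells only, and the number of animals behind each library is not given in the sources used here. Each condition had 1 library, so no difference could be checked against replicates, nothing was tested, and all intervals are 95% intervals of counting error only. Since PCR copies of a fragment are not independent, the true error is wider than these intervals. Fewer cells carrying Ser5 at a gene and less Ser5 per cell cannot be told apart in such libraries.

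C-type lectin receptors bind sugars and lipids of fungi, mycobacteria and damaged cells. Clec4e (Mincle), Clec4d (MCL) and Clec4n (Dectin-2) have short tails and signal through Fcer1g, the Fc receptor gamma chain. Clec7a (Dectin-1), the receptor of fungal β-glucan, carries an activating motif in its own tail, and Clec5a (MDL-1) pairs with Tyrobp and Hcst. Clec2d (Clr-b) is a ligand that inhibitory receptors of NK cells recognise. In activated cells the signal passes through the Card9, Bcl10 and Malt1 complex towards NF-κB. Ser5 of the Pol_II tail is phosphorylated as transcription starts, so the mark lies at start sites and, less densely, along transcribed genes.

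The windows of 250 bases upstream of 4 of the start sites are shown because these genes span the range of Ser5 described here: Clec4e had the largest ratio of LPS to UT, Clec4d is its neighbour and faces it, Clec2d was the densest gene before treatment, and Clec7a had no peak. All are mm9 sequence, written 5′ to 3′ on the strand of the gene and ending at the base before the TSS. They are Clec4e, chr6:123239890-123240139, minus strand, Clec4d, chr6:123211875-123212124, plus strand, Clec2d, chr6:129130383-129130632, plus strand, and Clec7a, chr6:129422791-129423040, minus strand. Capitals mark matches to the motifs described next.
Clec4e: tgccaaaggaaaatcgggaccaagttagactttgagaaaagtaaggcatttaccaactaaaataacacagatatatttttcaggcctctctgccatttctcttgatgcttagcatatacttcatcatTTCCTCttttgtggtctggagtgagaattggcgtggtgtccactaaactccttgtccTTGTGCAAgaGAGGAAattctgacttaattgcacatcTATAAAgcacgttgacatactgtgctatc
Clec4d: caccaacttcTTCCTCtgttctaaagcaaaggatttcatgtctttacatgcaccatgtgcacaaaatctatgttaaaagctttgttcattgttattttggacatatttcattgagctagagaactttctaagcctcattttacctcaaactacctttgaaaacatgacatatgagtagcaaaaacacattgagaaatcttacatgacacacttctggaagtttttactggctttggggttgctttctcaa
Clec2d: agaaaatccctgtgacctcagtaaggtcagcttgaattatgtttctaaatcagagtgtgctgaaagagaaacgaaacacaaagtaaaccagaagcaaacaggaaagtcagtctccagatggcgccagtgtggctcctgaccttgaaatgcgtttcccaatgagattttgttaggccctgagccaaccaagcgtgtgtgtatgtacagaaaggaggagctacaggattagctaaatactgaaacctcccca
Clec7a: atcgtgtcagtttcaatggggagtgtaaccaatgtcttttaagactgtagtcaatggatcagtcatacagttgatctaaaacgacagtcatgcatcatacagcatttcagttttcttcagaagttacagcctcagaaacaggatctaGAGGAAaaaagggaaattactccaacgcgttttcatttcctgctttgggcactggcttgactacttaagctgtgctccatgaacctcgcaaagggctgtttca

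The motif searched for PU.1, a factor of myeloid cells, was the core GAGGAA. Those of AP-1 and C/EBP were TGAGTCA and TTGCNNAA respectively. The TATA box was searched as TATAAA, and NF-κB by its consensus, all on both strands. No match overlapped another. In the upstream window of Clec4e the search found TATAAA 29 to 24 bases before the TSS, a C/EBP match 66 to 59 bases before it and PU.1 cores at 56 to 51 and at 123 to 118 bases. Clec4d held a single PU.1 core, 240 to 235 bases upstream, Clec7a held one at 103 to 98 bases, and Clec2d held no match. Of the 22345 windows of the same length upstream of coding genes, 23.1% held the PU.1 core, 3.86% the AP-1, 9.17% the C/EBP, 12.3% the TATA and 4.14% the NF-κB motif. The windows of the 6 genes held between 0 (Clec4d) and 5 (Clec7a) CpG, against a median of 8 and quartiles of 3 and 18 over all windows. Such matches are descriptions of sequence and were not tied to any factor's binding.

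The libraries held 7616771 (UT), 6249819 (LPS) and 7533308 (input) tags on chromosomes 1 to 19 and X. Tags spanned 45 bases in the UT file, 30 in the LPS file and 36 in the input file, whereas the study's methods give the 2 Ser5 lengths the other way round. The labels were kept, and 8 of 8 LPS response genes were higher in the library labelled LPS, from Nfkbia, the inhibitor of NF-κB, at a ratio of 6.18 to the chemokine Ccl5 at 396. Of 8 macrophage markers, 7 had at least 2 times the input density over the gene body in UT and Mertk 1.36 times. None of the 8 T and B cell, 4 NK cell, 4 dendritic cell, 5 granulocyte and 4 fibroblast markers did. The nearest were Cd79b (20 tags in UT, 10 in the input) and S100a8 (16 and 8), both at 1.98 times, and Cd79a at 1.77. In TSS windows S100a8 (30 and 14 tags) had 2.12 times the input in UT and Cd79a (17 and 8) 2.1 times. Summed gene-body levels of these lists lay between 0.0563 and 0.25 tags per kb and per 1000000 library tags (TPM per kb) in UT. In LPS they lay between 0.0571 and 0.355, and both ranges were below the input of the same lists (0.337 to 0.634). In LPS 7 of the macrophage markers reached 2 times the input density, Mertk at 2.01 times, whereas Itgam had 0.613 times. The dendritic cell marker Xcr1 had 2.59 times the input density in LPS, with 72, 133 and 62 tags in UT, LPS and input. Over the gene body no defining marker of these lists was at 0 tags, whereas some TSS windows, such as that of Clec9a, held 0 in both Ser5 libraries. A gene was called higher or lower when its TPM ratio of LPS to UT was at least 2 or at most 0.5, given at least 20 tags over both Ser5 libraries. By this rule 5.25% of 16214 coding genes measured over the gene body were higher and 10.6% lower, with a median ratio of 0.873 (log2 -0.20). Scaling to tags outside the peaks moves that median to 0.939 (log2 -0.09) and raises every ratio 1.08-fold. Of the 8 macrophage markers 4 were lower over the gene body (Csf1r, Cd68, Lyz2 and Itgam) and 2 higher (Emr1 and Cd14).

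The 6 receptor genes fell into 3 levels of Ser5. Clec2d, Clec4d and Clec4e had dense Ser5 over the gene body already in UT and more in LPS, Clec5a had a low level that rose past the rule, and Clec4n and Clec7a had a lower TPM than the input in both libraries. Over the gene body 3 of the 6 were higher in LPS (Clec4e, Clec5a and Clec2d) and none was lower, with a median ratio of 1.96. Of all coding genes measured 5.25% were higher and 10.6% lower. Over the TSS windows 2 of the 6 were higher, Clec4e and Clec4d, and none lower, with a median of 1.73. Of all TSS windows measured 4.37% were higher and 13.1% lower. In the TSS windows of the receptor genes 4 of the 6 had a deposited peak and at least 2 times the input density in each Ser5 library (Clec4e, Clec4d, Clec5a and Clec2d). Over all coding genes 48% of TSS windows held a peak in UT and 45.9% in LPS, and of those with at least 20 tags 89.9% and 88.2% reached 2 times the input. In UT the order of gene-body levels was Clec2d (18.5 TPM per kb), Clec4d (10.7), Clec4e (9.96), Clec5a (2.27), Clec4n (0.367) and Clec7a (0.153). The intervals of Clec4d (10.1 to 11.4) and Clec4e (9.18 to 10.8) overlapped, and those of the other neighbours in this order did not. In LPS Clec4e stood first (82.6), ahead of Clec2d (41.1), Clec4d (18.1), Clec5a (5.34), Clec4n (0.298) and Clec7a (0.2), and only the intervals of the last pair overlapped among neighbours.

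**Figure D1:**
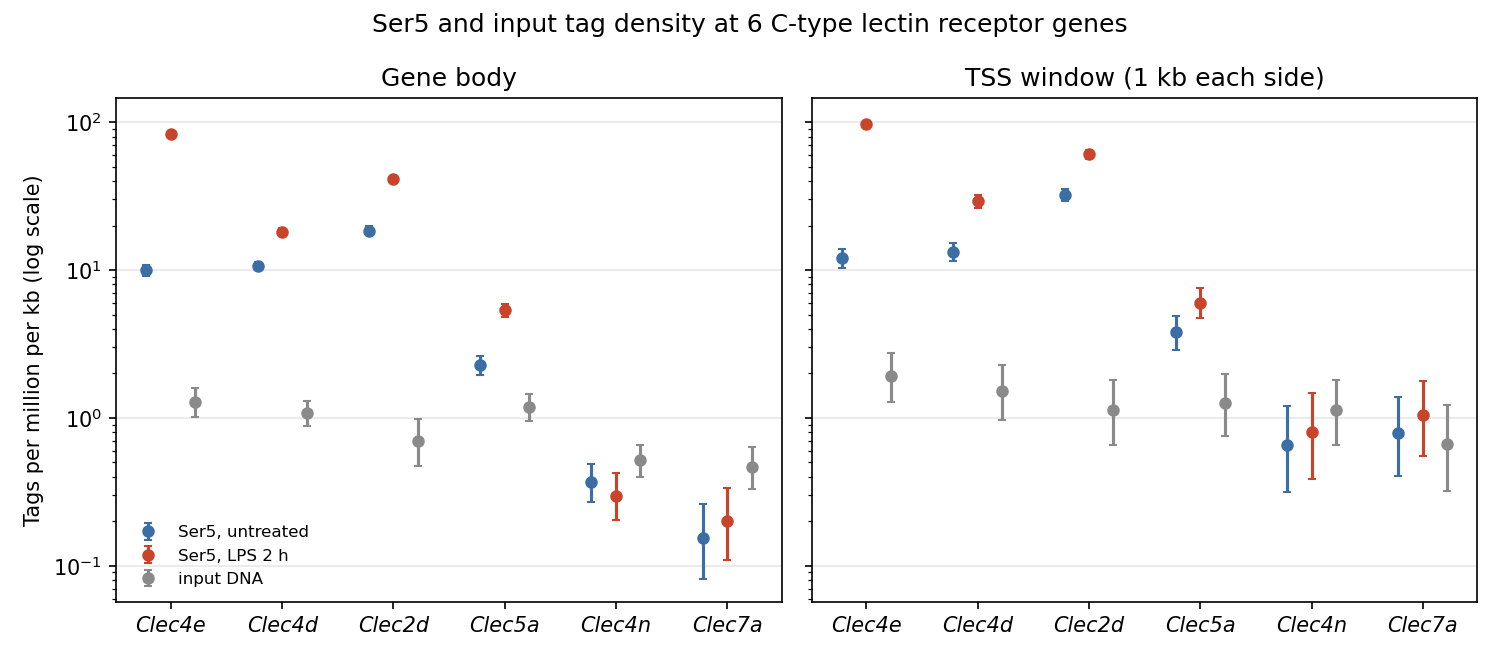
Tag density (TPM per kb, log axis) of the 6 receptor genes over the gene body (left) and within 1 kb of the TSS (right) in the untreated Ser5, LPS Ser5 and input libraries; bars are exact 95% Poisson intervals of the tag count, and each point is 1 library. Clec4e rises from 9.96 to 82.6 over the gene body, whereas Clec4n and Clec7a lie below the input there.

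Clec4e, the receptor of mycobacterial cord glycolipid, spans 8083 bp on the minus strand (chr6:123231807-123239889). Its gene body held 613 tags in UT, 4175 in LPS and 78 in the input. The LPS library was the high one by far, with an LPS to UT ratio of 8.3 (7.62 to 9.05) that ranked 58 from the highest of 16214 genes. Its density in UT was above that of 95.8% of the 17452 coding genes with at least 20 tags in UT and input together, and in LPS above that of 99.8% of 17299. The TSS window held 183, 1207 and 29 tags in UT, LPS and input, a ratio of 8.04 (6.88 to 9.44), against 4.37% of 11418 TSS windows called higher and 13.1% lower.

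Along Clec4e, with the interior after the first kb cut into 3 equal parts, the ratio of LPS to UT was above 6 throughout. It was 8.25 (6.98 to 9.8) in the first kb after the TSS, 9.95 (8.57 to 11.6) in the first part of the interior, 6.83 (5.73 to 8.2) in the middle part and 7.44 (6.09 to 9.17) in the last. Ser5 did not stop at the annotated gene end. The 2 kb after it held 159 tags in UT and 500 in LPS, and there the ratio was smaller, at 3.83 (3.2 to 4.61). Upstream, from 5 to 1 kb before the TSS, only 6, 23 and 24 tags lay in UT, LPS and input.

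Deposited peaks covered 85.9% of the gene body of Clec4e in UT, in 9 peaks, and 98.4% in LPS, in 2 peaks. By a different measure, a share of genes and not of gene length, 53.3% of coding genes had any peak over the gene body in UT and 50.6% in LPS. The 3 coding genes nearest to Clec4e in log2 density over the gene body and TSS window of both Ser5 libraries, among 11278 compared, were Icam4, an adhesion molecule of red cells, Socs3, a feedback inhibitor of cytokine signals, and Pim1, a kinase. Their distances were 0.69, 0.77 and 1.22 on the log2 scale. Icam4 went from 11 to 85.5 TPM per kb over the gene body.

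Clec4d, which encodes the partner that forms dimers with Clec4e, spans 13162 bp on the plus strand (chr6:123212125-123225286), so that both genes are transcribed towards each other. Its gene body held 1075 tags in UT, 1493 in LPS and 107 in the input. LPS exceeded UT with a ratio of 1.69 (1.56 to 1.83), short of the rule of 2 and far below the interval of Clec4e. Its TSS window held 202, 366 and 23 tags, and its ratio of 2.21 (1.85 to 2.64) passed the rule. With 500 bp in place of 1 kb on each side the ratio was 2.44 (1.86 to 3.22).

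The kb before the Clec4d TSS had the larger ratio, from 28 to 78 tags (3.4, 2.18 to 5.43). The kb after it went from 174 to 288 (2.02, 1.67 to 2.45), and these intervals overlapped. The first part of the interior held 589 tags in UT and 813 in LPS. Level fell along the gene, in UT from 22.8 TPM per kb in the first kb to 19.1 in that part and to 7.13 and 2.98 in the next parts, and in LPS from 46 to 32.1, 10 and 5.45. Deposited peaks covered 64.9% of the gene in UT (11 peaks) and 68.2% in LPS (9 peaks).

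Clec2d spans 5920 bp on the plus strand (chr6:129130633-129136552). Over its body lay 832 tags in UT, 1521 in LPS and 31 in the input. UT already stood 26.5 times (18.6 to 39.3) above the input, the largest such value of the 6 genes, and LPS reached 59.1 times (41.5 to 87.4). The ratio of LPS to UT was 2.23 (2.05 to 2.43) over the gene body. Over the TSS window, with 490, 758 and 17 tags, it was 1.89 (1.68 to 2.12) and under the rule, which it passed at 2.03 (1.81 to 2.28) when scaled to tags outside the peaks. Within the gene the first part of the interior had the largest ratio, from 224 to 520 tags (2.83, 2.41 to 3.32). Its interval overlapped that of the middle part (2.2, 1.65 to 2.95). The kb after the TSS went from 397 to 629 (1.93, 1.7 to 2.19).

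Peaks of Clec2d covered 74.4% of the gene in UT and 87.7% in LPS, 6 peaks in each. In LPS, 2 more peaks lay 8790 and 8490 bp upstream of its TSS, with 4 and 18 tags in the first and 2 and 16 in the second in UT and LPS. Neither overlapped a peak of the UT list. The region from 5 to 1 kb upstream was nearly empty, with 1, 12 and 31 tags in UT, LPS and input.

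Clec5a spans 10908 bp on the minus strand far from the other genes (chr6:40524897-40535804). Over its body lay 189 tags in UT, 364 in LPS and 97 in the input. UT was 1.93 times (1.5 to 2.49) the input and LPS 4.52 times (3.61 to 5.72), while 39.2% of coding genes reached 2 times the input over the gene body in UT and 34.4% in LPS. Scaled to tags outside the peaks, these values became 3.67 (2.85 to 4.73) and 9.26 (7.38 to 11.7), so that UT passed 2 times the input by that scaling. The ratio of LPS to UT was 2.35 (1.96 to 2.81) and 3.8 with the input subtracted, and its interval overlapped that of Clec2d. The TSS window, with 58, 75 and 19 tags, gave 1.58 (1.1 to 2.26).

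At Clec5a the ratio was larger in the first and middle parts of the interior than in the first kb, but the intervals overlapped. The first part of the interior went from 39 to 97 tags (3.03, 2.07 to 4.52) and the middle part from 29 to 79 (3.32, 2.14 to 5.27), against 37 to 51 (1.68, 1.08 to 2.64) in the first kb. Deposited peaks over the gene numbered 3 in UT, covering 10.7% of it, and 10 in LPS, covering 58.2%. The last part, with 84 and 137 tags, had a ratio of 1.99 (1.5 to 2.64). It was the densest part of the interior in both libraries and also in the input, with 43 tags.

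Clec4n, the receptor of fungal mannan, spans 17179 bp on the plus strand (chr6:123179861-123197039) and lies next to Clec4d. Its gene body held 48 tags in UT, 32 in LPS and 67 in the input, so both Ser5 libraries lay below the input in TPM, UT at 0.709 times (0.479 to 1.04) and LPS at 0.576 times (0.366 to 0.89). With the libraries scaled to tags outside the peaks these values became 1.35 (0.91 to 1.98) and 1.18 (0.748 to 1.82), so whether it lay above or below the input depended on the scaling. Its TSS window held 10, 10 and 17 tags. No deposited peak touched it in either library, and the ratio of LPS to UT, 0.812 (0.503 to 1.3), was not distinguishable from 1 at this depth. Only 62.4% of the 30-base sequences in its body occur once in mm9, so part of the gene could hold no uniquely aligned tag.

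Clec7a spans 11180 bp on the minus strand (chr6:129411611-129422790). Its gene body held 13 tags in UT, 14 in LPS and 39 in the input, and its TSS window 12, 13 and 10. The gene body was at 0.33 times (0.161 to 0.631) the input in UT and 0.433 times (0.217 to 0.815) in LPS. The kb before the TSS, outside the gene body, held 8, 13 and 3 tags in UT, LPS and input. No peak of either list touched Clec7a, and a change by LPS was not detectable at this depth (1.31, 0.572 to 3.03). Of its 30-base sequences 90% occur once in mm9. The genes nearest to it in the 4 densities were Prss32, Ankrd6 and Phf11, at log2 distances of 0.27, 0.29 and 0.29.

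**Figure D2:**
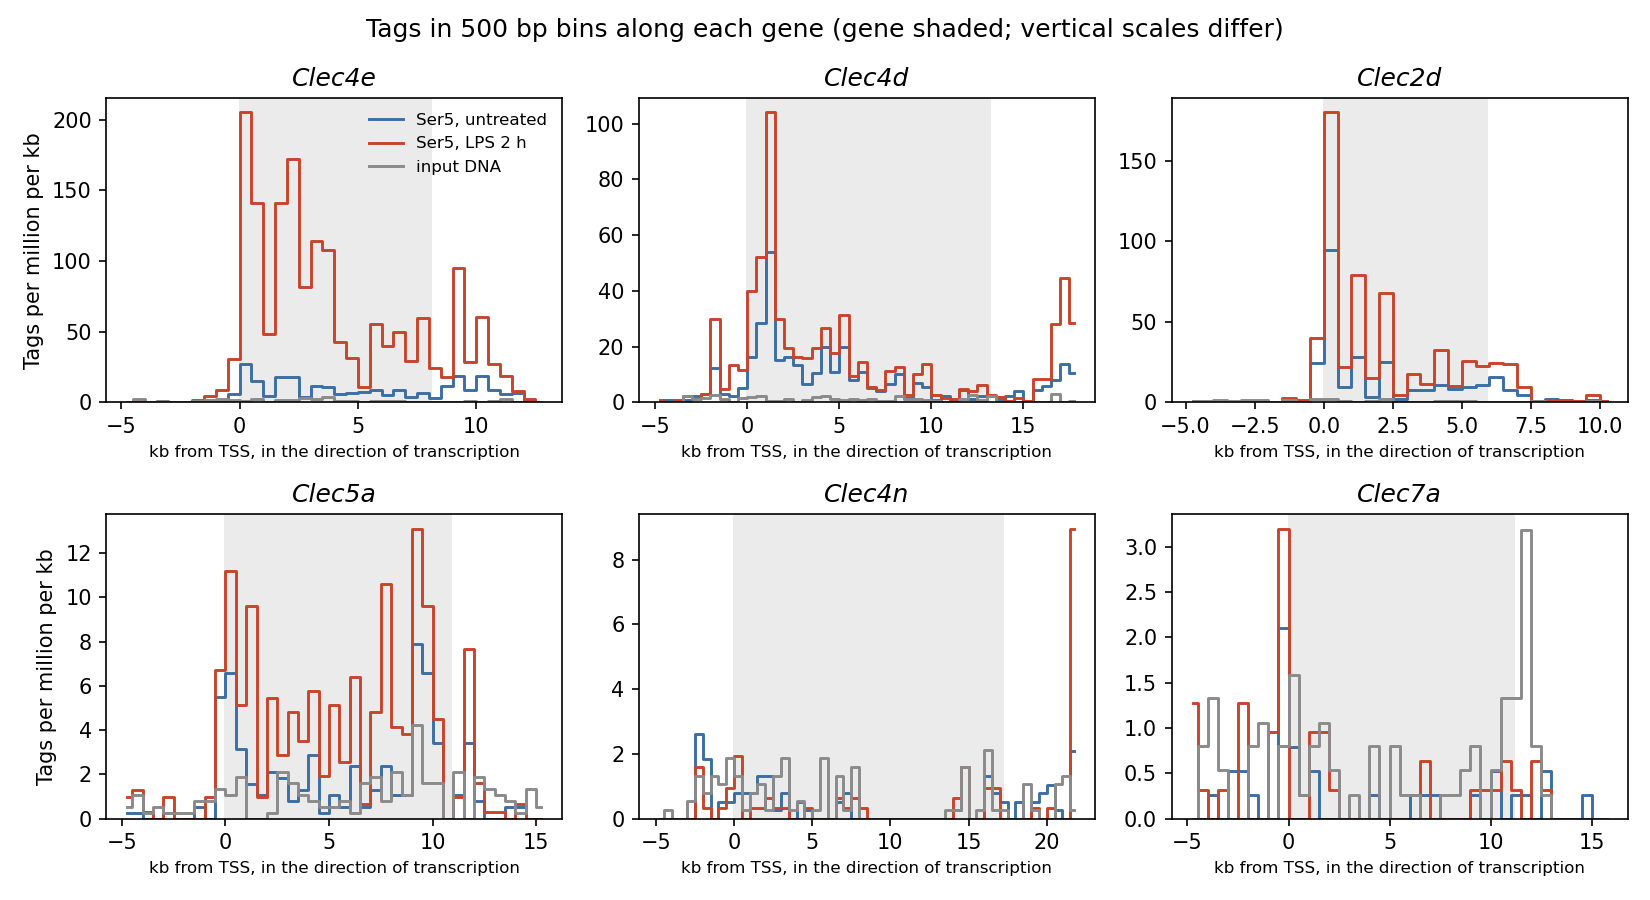
TPM per kb in 500 bp bins from 5 kb before the TSS to 5 kb past the gene end for the 6 receptor genes, in the direction of transcription, with each gene shaded and vertical scales that differ between panels; lines are the untreated Ser5, LPS Ser5 and input libraries. Clec4e and Clec2d keep Ser5 past the gene end, Clec4d falls along its body, and Clec4n and Clec7a stay near the input line, apart from the last bins at Clec4n, which reach towards Clec4d.

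Most coding genes had far denser Ser5 at the TSS than inside the gene. The ratio of the density in the TSS window to that in the interior, the gene without its first kb, had a median of 7.19 in UT and 6.61 in LPS over 14203 genes, with quartiles of 1.97 and 15.6 in UT and 1.9 and 14.7 in LPS. The 4 receptor genes with peaks all lay below these medians, and all but Clec2d lay under the lower quartile in both libraries. The intervals of Clec4d in LPS and Clec5a in UT reached past that quartile. Clec4e had 1.43 (1.2 to 1.7) in UT and 1.38 (1.29 to 1.48) in LPS. Clec4d had 1.36 (1.16 to 1.59) and 1.85 (1.64 to 2.08). Clec5a went from 1.89 (1.37 to 2.57) to 1.19 (0.909 to 1.53), and Clec2d from 2.77 (2.43 to 3.16) to 2.09 (1.89 to 2.3). Between libraries the intervals of Clec4d and Clec2d did not overlap, and the moves had opposite signs. In Clec4d the TSS window gained more than the interior, in Clec2d less.

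The Clec4 genes form a cluster of 368 kb (chr6:122871866-123239889) in which all but Clec4e lie on the plus strand. Its Ser5 was concentrated at the ends. The whole cluster held 3235 tags in UT, 8145 in LPS and 1456 in the input, a ratio of LPS to UT of 3.07 (2.95 to 3.2). Clec4e alone took 18.9% of the cluster's tags in UT and 51.3% in LPS, and Clec4d 33.2% and 18.3%. Clec4n, Clec4d and Clec4e together took 53.7% in UT, 70% in LPS and 17.3% in the input.

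**Figure D3:**
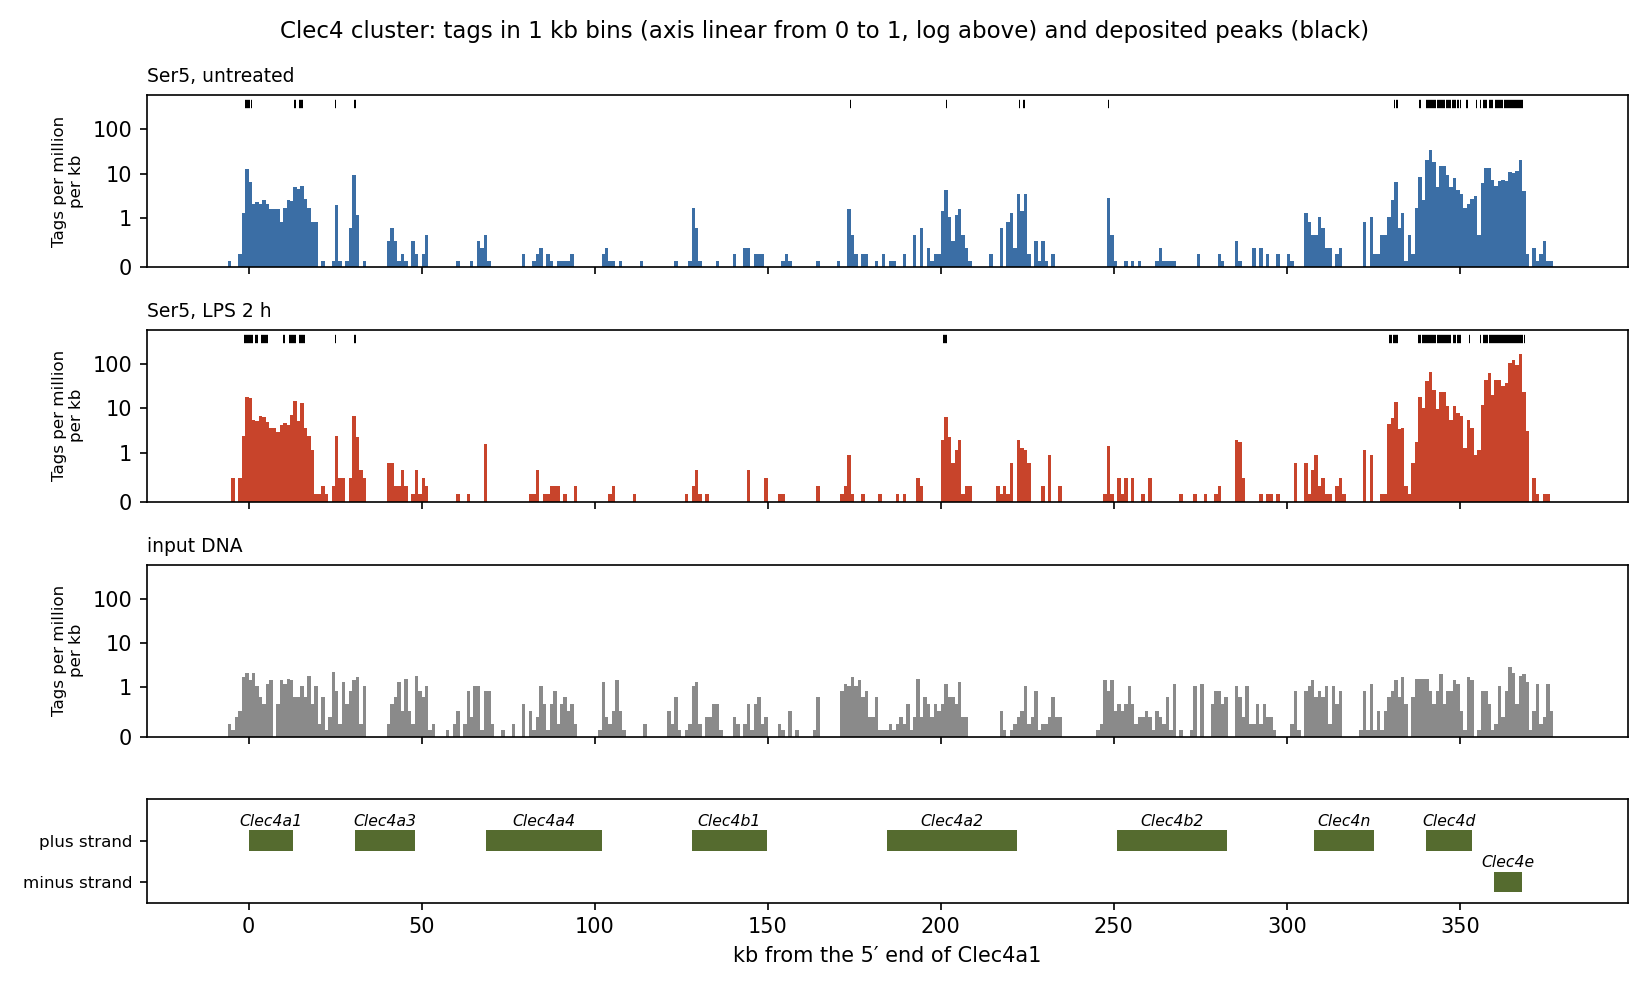
TPM in 1 kb bins across the Clec4 cluster, from 10 kb before Clec4a1 to 10 kb past Clec4e, for untreated Ser5, LPS Ser5 and input (axis linear from 0 to 1 and logarithmic above), with deposited peaks as black bars and the 9 genes by strand below. Ser5 and peaks gather around Clec4a1 on the left and from the flank of Clec4d to Clec4e on the right, and the genes between them stay near or below 1 in most bins.

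Among the other 6 genes of the cluster, Clec4a1, a member of the dendritic cell immunoreceptor (DCIR) family at the far end from Clec4e, was the one called higher. Its gene body held 222 tags in UT, 463 in LPS and 111 in the input, a ratio of 2.54 (2.16 to 3), or 4.12 with the input subtracted, and its TSS window 149, 222 and 27 (1.82, 1.47 to 2.25). Over the gene body 2 of the 9 cluster genes were higher, Clec4a1 and Clec4e, and none was lower, with a median ratio of 1.22. Of all coding genes measured 5.25% were higher and 10.6% lower, with a median of 0.873. Peaks covered 6.84% of Clec4a1 in UT and 46.4% in LPS.

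Clec4a3 carried Ser5 mainly at its start site. Its TSS window held 81, 57 and 27 tags in UT, LPS and input, and its interior 23 in UT and 28 in LPS, so that the TSS was 28.8 times (17.9 to 48) as dense as the interior in UT and 16.6 times (10.4 to 27.2) in LPS. The ratio of LPS to UT was 1.06 (0.753 to 1.49) over its gene body. With the input subtracted it was 1.89, a value without an interval. It rests on levels close to the input, 0.582 in UT and 0.617 in LPS against 0.543 TPM per kb. Of the 30-base sequences of its body 56.3% occur once in mm9, against 100% in its TSS window.

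Clec4a2, the inhibitory receptor DCIR, held 136, 114 and 112 tags in UT, LPS and input. Its ratio was 1.02 (0.789 to 1.32) over the gene record and 0.97 (0.705 to 1.33) over the longest coding transcript. Both Ser5 libraries had a peak over the start of that transcript. The UT peak, centred 17090 bp inside the gene record, held 24, 21 and 3 tags in UT, LPS and input. The LPS peak, centred at 16701 bp, held 37, 51 and 9. Clec4b1 (DCAR) had 33, 15 and 66 tags, a ratio of 0.554 (0.28 to 1.05). Clec4a4 had 18, 18 and 84, and Clec4b2 16, 20 and 114. These last 3 genes lay below the input in both Ser5 libraries and had no peak. Between 53.9% (Clec4a4) and 77.1% (Clec4b2) of the 30-base sequences of these 4 gene bodies occur once in mm9.

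**Figure D4:**
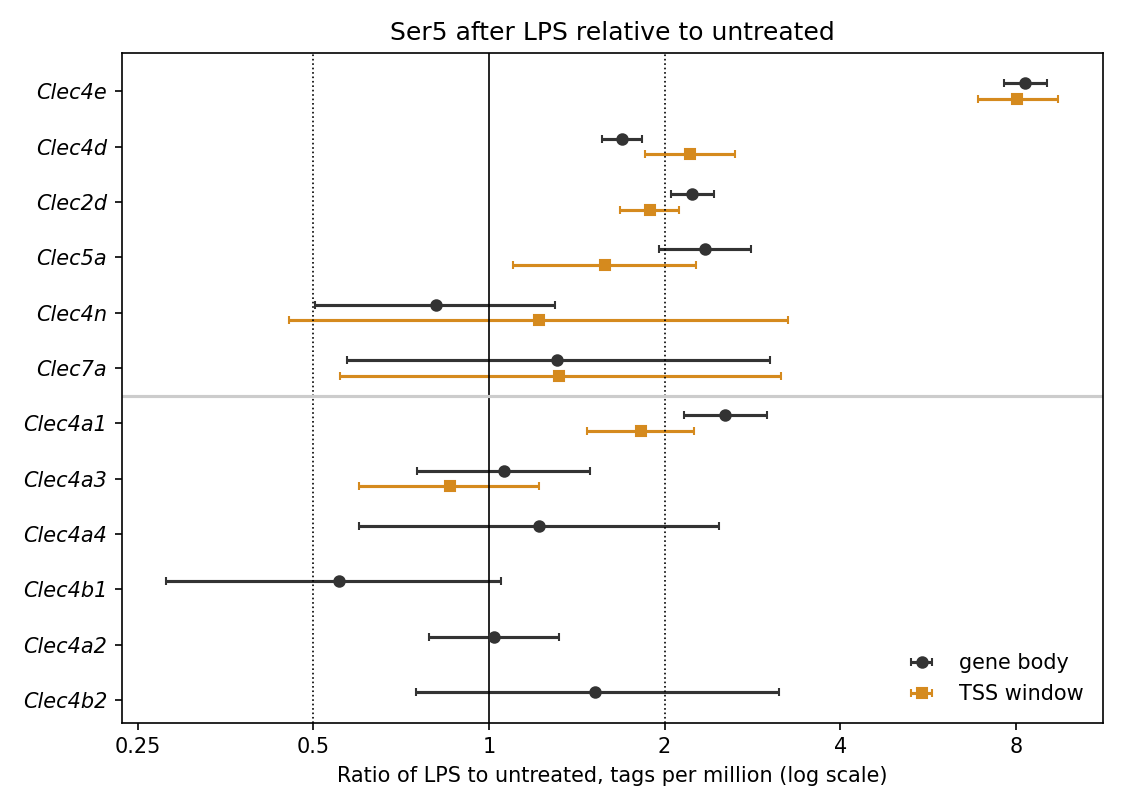
Ratio of LPS to untreated Ser5 in TPM (log axis) for the 6 receptor genes, above the grey line, and the other 6 Clec4 genes of the cluster, over the gene body (circles) and the TSS window (squares, where at least 20 tags were counted over both libraries); bars are exact 95% counting intervals and dotted lines mark 0.5 and 2. Clec4e stands apart near 8, and the intervals of 7 of the gene bodies include 1.

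The 44 peaks of the cluster in UT and the 32 in LPS included 21 and 13 whose midpoint lay outside the genes. At p of at most 1e-10 the cluster had 27 peaks in UT and 26 in LPS. Between the ends of Clec4d and Clec4e, an interval of 6.52 kb, there were 352 tags in UT, 879 in LPS and 27 in the input, a density of 7.09 and 21.6 TPM per kb (ratio 3.04, 2.69 to 3.45). Within it the 2 kb next to Clec4d held 36 tags in UT and 21 in LPS (0.711, 0.394 to 1.25), and the 2 kb next to Clec4e 159 and 500. The increase lay on the Clec4e side.

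Upstream of Clec4d, the 15.1 kb up to Clec4n held 219 tags in UT, 415 in LPS and 100 in the input (2.31, 1.96 to 2.73). Peaks stood in both libraries about 9 kb and 2 kb before the Clec4d TSS, which was the nearest TSS. The peak centred 1582 bp upstream in UT held 44 tags in UT, 87 in LPS and 6 in the input, and the one centred 9044 bp upstream 29, 49 and 7. In LPS, 2 further peaks lay 10445 and 10104 bp upstream. At the other end, the 17.9 kb from Clec4a1 to Clec4a3 went from 215 to 314 tags (1.78, 1.49 to 2.13).

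The 28.9 kb between Clec4a2 and Clec4b2 went the other way, from 104 to 53 tags with 83 in the input (0.621, 0.437 to 0.873). None of the 4 UT peaks in this interval overlapped an LPS peak. The one nearest to a start site, 2433 bp before Clec4b2, held 18 tags in UT, 4 in LPS and 1 in the input. The remaining intervals of the cluster held fewer tags per kb than the input in both Ser5 libraries.

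The lectin genes around Clec7a and Clec2d showed little Ser5. Of 15 listed neighbours 14 had a coding annotation, 11 were measured over the gene body, and none passed the rule in either direction, with a median ratio of 0.937. Over all coding genes measured 5.25% were higher and 10.6% lower. Over the gene body Clec12a, an inhibitory receptor, was the one neighbour with at least 2 times the input density, with 612 tags in UT, 877 in LPS and 168 in the input (1.75, 1.57 to 1.94). Its TSS window held only 1, 2 and 9 tags. The lowest ratio was that of Clec2i, with 23, 10 and 25 tags (0.53, 0.225 to 1.16). Klrb1b, which encodes an NK cell receptor for Clec2d, held 10, 4 and 35 tags and was not measured.

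Of 16 listed genes that carry the signal of these receptors, 15 were analysed here. Malt1, the protease of the Card9 complex, was the only one called higher over the gene body, with 376 tags in UT, 1818 in LPS and 231 in the input (5.89, 5.27 to 6.6). Its TSS window, with 373 and 435 tags, had a ratio of 1.42 (1.23 to 1.64). Fcer1g, the chain used by Clec4e, Clec4d and Clec4n, had 611, 1002 and 41 tags, and its ratio, 2 after rounding (1.81 to 2.21), fell just short of the rule.

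The chains used by Clec5a went the other way. Tyrobp had 350 tags in UT, 134 in LPS and 36 in the input (0.467, 0.379 to 0.571), and Hcst 333, 93 and 14 (0.34, 0.267 to 0.43). Both genes are adjacent and face each other, so tags near their ends could come from transcription of either. Card9, the adaptor beside Malt1, had 392, 144 and 68 (0.448, 0.367 to 0.543). With Nfatc1, a transcription factor named here after its values were seen (0.482, 0.436 to 0.531), these were the 4 genes called lower, and the median of the 15 was 0.768. Of all coding genes measured 10.6% were lower and 5.25% higher, with a median of 0.873. Scaled to tags outside the peaks, Tyrobp and Nfatc1 came to lie above 0.5 and Fcer1g above 2, so that the counts became 2 higher and 2 lower, while over all coding genes the counts went from 851 to 1010 higher and from 1714 to 1342 lower. Over the TSS windows Vav3, an exchange factor named after its values were seen, was the 1 gene called lower, with 201 and 34 tags (0.206), whereas Tyrobp (0.525), Hcst (0.615) and Card9 (0.673) stayed above 0.5. Of all TSS windows measured 13.1% were lower.

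C-type lectins elsewhere in the genome gave no gene higher and 3 lower among the 6 of 15 that were measured. The shares over all coding genes measured were 5.25% higher and 10.6% lower. Mrc1, the mannose receptor, went from 652 tags in UT to 84 in LPS with 560 in the input (0.157, 0.124 to 0.197), and its TSS window from 98 to 16 with 26. Clec10a, a galactose-binding lectin, had 61, 16 and 20 tags (0.32, 0.172 to 0.561), and Colec12, a scavenger receptor, 905, 232 and 648 (0.312, 0.269 to 0.361). The highest ratio of this list, 1.62 (0.721 to 3.76) at Clec4g, rested on 12 and 16 tags.

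**Figure D5:**
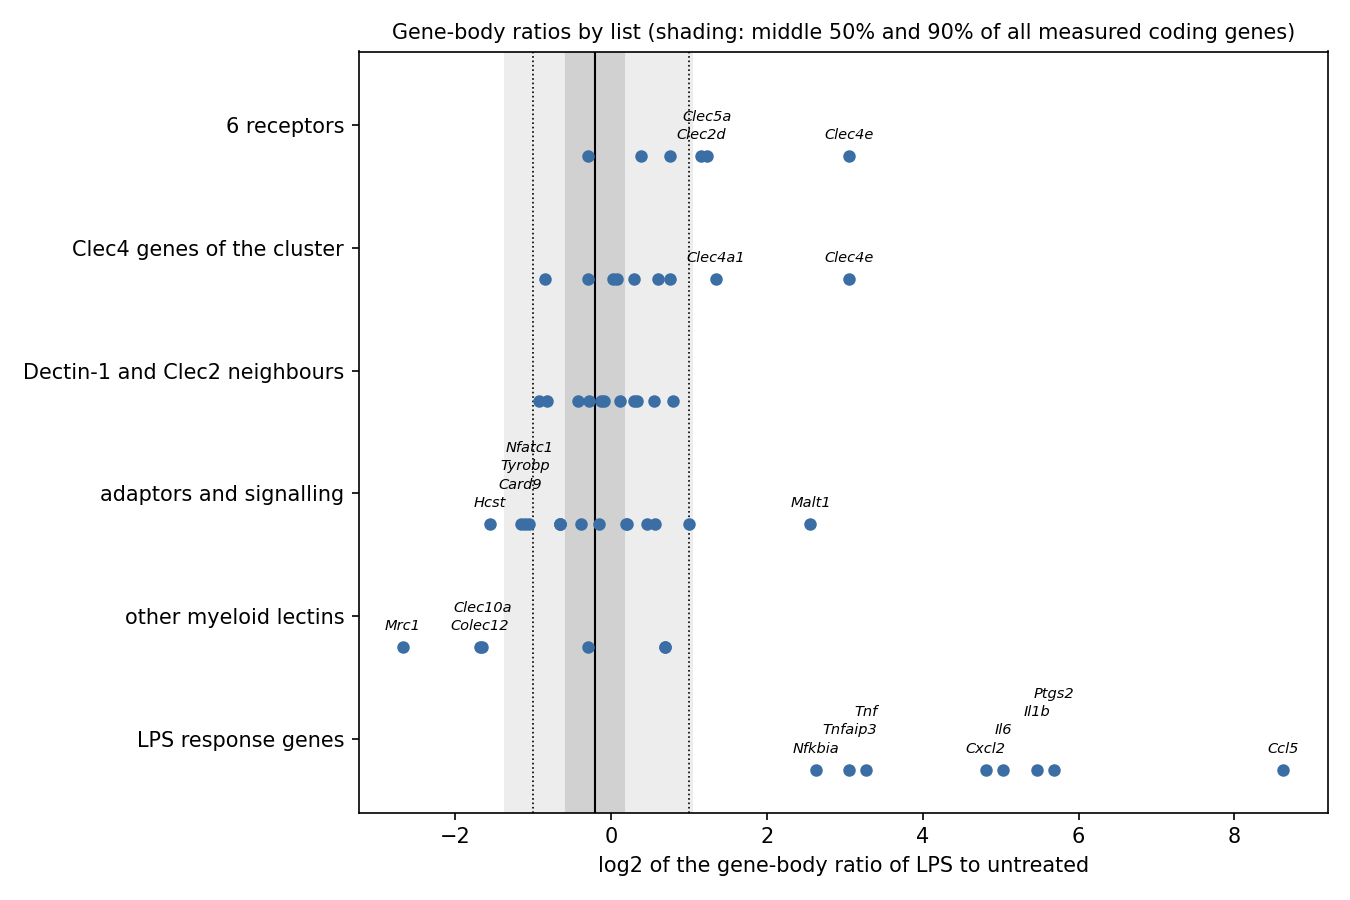
log2 of the gene-body ratio of LPS to untreated Ser5 for the measured genes of 6 lists, 1 point a gene, with names at those called higher or lower; dotted lines mark the rule of 2, the black line the median of all measured coding genes (-0.20), and shading their middle 50% and 90%. Clec4e lies to the right with Malt1 and the LPS response genes, and Mrc1, Clec10a and Colec12 lie to the left.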

How the data were processed

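Ser5 of untreated and of LPS-treated cells and input DNA of untreated cells were sequenced. The authors trimmed 76-base reads, aligned them to mm9 with Bowtie (both also named in the submitters' processing notes; version not given in the sources used here), kept unique matches (no more than 2 mismatches) and called peaks by MACS at p 1e-05, separately for both Ser5 libraries and against the input. The deposited tag files give positions and strands, duplicates included; the score of each deposited peak is minus 10 times log10 of its p-value. Tag starts in the files were taken to count from 0. With this choice 0 of 8296 LPS tags lie on repeated 30-base sequences, against 2 of 8293 otherwise, so it rests on few tags. Mice were Fvb/Hsd and mm9 derives from another strain, and the effect on alignment was not tested.

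Tags were counted by 5′ end in GENCODE M1 genes and scaled to 1000000 library tags on chromosomes 1 to 19 and X (TPM). Ratios have exact 95% intervals conditional on the sum, levels exact Poisson intervals, and 0 tags were set to 0.5 for the rule only. With these depths, and duplicate tags making up part of each library (84.5%, 81.4% and 82.7% of tags in UT, LPS and input were at distinct positions), genes under 20 tags gave no call. Named were all members and Clec4 genes, the extremes and at most 3 others of each further list, and the 3 nearest genes of Clec4e and Clec7a. Beyond this limit further cell markers and signalling genes were named, among them Nfatc1 and Vav3 after their values were seen. Members and lists were chosen with earlier results of these data known. Alternatives concerned duplicates, a 75 bp shift, scaling, repeated sequence, input subtraction, gene and window definitions, peak thresholds and the rule of size. Counting and intervals were tested on simulated data. Python 3.11.15, numpy 2.4.6, pandas 2.3.3, scipy 1.17.1, numba 0.67.0 and matplotlib 3.10.9 were used.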

Additional observations from a re-analysis of the deposited data

How the results depend on the processing

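No paired analysis was possible because each condition had 1 library, so leaving out a replicate was not possible either. Of the main values recomputed, 41 moved past their limits and 180 did not. Only the gene-body ratio of Clec4a2 crossed 1 among the ratios of LPS to UT of the 12 genes, from 1.02 to 0.97 (0.705 to 1.33) over its longest coding transcript. The TSS-window ratio came to 2 or more for Clec2d (2.03, scaled to tags outside the peaks), Clec4n (2.19, 0.66 to 8.33, within 500 bp) and, with the input subtracted, Clec7a (3.03) and Clec4a1 (2). The Clec7a value has no interval and rests on 12, 13 and 10 tags in UT, LPS and input, so it shows no rise. With 1 tag per position and strand Clec4e fell to 6.97 over the gene body and 6.26 over the TSS window; of its LPS tags 69.7% were at distinct positions. The TSS against interior ratio then became 1.27 for Clec4e in LPS and 2.15 and 1.61 for Clec2d in UT and LPS. With input subtracted the gene-body ratio was 9.38 for Clec4e, 3.8 for Clec5a, 4.12 for Clec4a1 and 1.89 for Clec4a3, and none could be had for Clec4n and Clec7a, which lay below the input. No input-subtracted ratio has an interval, and at Clec4a3 both Ser5 libraries lay close to the input. Keeping only positions whose 30-base sequence occurs once in mm9 moved none of the ratios past its interval. This filter counts exact copies, whereas alignment allowed up to 2 mismatches, so it does not fully set the unequal tag lengths aside. The interior of Clec2d alone gave 2.5. Scaled to tags outside the peaks, gene-body Ser5 over input in UT and LPS became 14.8 and 132 for Clec4e, 18.9 and 34.4 for Clec4d, 1.35 and 1.18 for Clec4n, 3.67 and 9.26 for Clec5a, and 50.5 and 121 for Clec2d, with 0.885 for Clec7a in LPS.

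At a ratio of 1.5 the genes called higher were 4 in the Clec4 cluster, 1 among the Clec7a and Clec2d neighbours, 2 of the signalling genes, 2 of the other lectins and 1796 of all coding genes, and those called lower 1, 2 and 7 in the first 3 lists and 3988 of all. At a ratio of 3, 1 of the 6 receptors and 1 cluster gene were higher, 0 signalling genes lower, and 362 of all genes higher and 473 lower. With a minimum of 10 tags 1 neighbour was lower and 2 other lectins higher, beside 1011 of all coding genes higher and 1955 lower. The neighbour was Klrb1b (0.487, 0.112 to 1.69). The lectins called higher were Mgl2 (3.25, 0.78 to 19) and Cd207 (2.19, 0.66 to 8.33). Each of these intervals includes 1, so these added calls cannot be told from counting error. By TSS window 0 signalling genes were higher and 1 lower, and 499 of all genes were higher. Scaled to tags outside the peaks, 2 signalling genes were higher and 2 lower, beside 1010 and 1342 of all coding genes. At p of at most 1e-10 the cluster had 27 peaks in UT and 26 in LPS. Genes of low tag counts, with 1 library a condition and input from untreated cells only, limit what these data can show, and the causes of the shifts were not tested beyond what each setting itself changes.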
